A study of Mus musculus with 12 samples.

Results

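The transcripts of polyamine metabolism were measured in single muscle fibers of the mouse extensor digitorum longus (EDL), a fast hindlimb muscle. Of the 55367 gene symbols listed for each sample, 9 were taken by name: *Odc1*, *Amd1*, *Srm* and *Sms* for synthesis, *Smox* and *Sat1* for breakdown, and *Oaz1*, *Oaz2* and *Azin1* for control of the first enzyme. All 9 were on the list of every sample and entered the tests. The 12 samples were 4 of young C57BL/6J mice (3–4 months), 4 of Fluo-4 normal fibers and 4 of Fluo-4 abnormal fibers, both of the latter from aged mice (26–28 months). The methods name the Jackson Laboratory as the source of C57BL/6J mice and a research center as that of the aged mice, with no separate strain. Age and source thus cannot be told apart in comparisons with young fibers. Fluo-4 is a dye that fluoresces when it binds Ca2+, and aged fibers were separated into the normal and the abnormal, brighter class under a fluorescence stereomicroscope after dissociation and staining. The labels name no transgene, allele or drug for any of the 3 groups. The class is thus defined by a stain, the brighter fibers were described in aged male mice, and the number of mice and of fibers per sample is not given in the sources used here, so p-values measure only the spread between these samples.

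Polyamines (putrescine, spermidine and spermine) are small, positively charged molecules that bind RNA, DNA and ion channels and are needed for growth and translation. Ornithine decarboxylase makes putrescine from ornithine, and aminopropyl groups derived from S-adenosylmethionine (SAM) then extend it to spermidine and spermine. Spermine is oxidized back to spermidine, or acetylated and exported, and antizymes bind ornithine decarboxylase and send it to the proteasome. In skeletal muscle, polyamine enzymes are known to respond to androgens, loading and disuse, and spermine blocks inward rectifier potassium channels.

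The antizyme mRNAs hold a sequence through which polyamines act on their own synthesis: a ribosome that reaches the stop codon of the short first reading frame shifts forward by 1 base when polyamines are plentiful, and only then makes the full antizyme. The site is shown because *Oaz1*, the most abundant member, and *Oaz2* carry it and because the transcript level alone does not give the amount of antizyme. Its 6 capital letters mark the last sense codon and the stop codon, and the 30-base stretches lie in exons at chr10:80664115-80664144 for *Oaz1* and chr9:65593540-65593569 for *Oaz2* (GRCm39, plus strand). The stretches differed at 2 bases, both outside the capitals. The sites were found by an exact search for letters that include the capitals, so a difference within them could not be found.
Oaz1: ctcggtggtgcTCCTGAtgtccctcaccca
Oaz2: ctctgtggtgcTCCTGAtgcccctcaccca

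The 250 bases before the transcription start are shown for *Odc1*, *Amd1* and *Smox*, the members with the largest differences between groups. They come from the RefSeq promoter table of the build GRCm38.p6, which matched 7 of the 9 genes (*Srm* and *Azin1* are not in it), and lie at chr12:17544623-17544872 on the plus strand for *Odc1*, chr10:40302189-40302438 on the minus strand for *Amd1* and chr2:131491612-131491861 on the plus strand for *Smox*. Capitals mark the GC box GGGCGG, a site for Sp1-type factors, or its reverse complement CCGCCC.
Odc1: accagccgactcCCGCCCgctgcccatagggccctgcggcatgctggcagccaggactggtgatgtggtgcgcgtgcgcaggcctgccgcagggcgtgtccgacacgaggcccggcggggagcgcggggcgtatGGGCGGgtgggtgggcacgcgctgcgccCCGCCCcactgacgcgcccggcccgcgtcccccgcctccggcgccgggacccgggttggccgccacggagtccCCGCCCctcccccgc
Amd1: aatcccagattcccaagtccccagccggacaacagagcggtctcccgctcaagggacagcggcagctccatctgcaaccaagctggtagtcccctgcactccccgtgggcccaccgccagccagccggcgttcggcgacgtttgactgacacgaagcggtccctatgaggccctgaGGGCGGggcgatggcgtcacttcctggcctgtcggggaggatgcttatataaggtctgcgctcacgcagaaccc
Smox: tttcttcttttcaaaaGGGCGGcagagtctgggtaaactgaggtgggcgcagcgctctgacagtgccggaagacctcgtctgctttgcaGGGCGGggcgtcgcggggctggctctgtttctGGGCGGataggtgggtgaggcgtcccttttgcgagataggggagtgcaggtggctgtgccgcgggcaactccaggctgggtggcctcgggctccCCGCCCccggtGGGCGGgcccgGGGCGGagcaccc
*Odc1* held 4 GC boxes, *Amd1* 1 and *Smox* 6, in windows with 80.0%, 64.4% and 68.0% of G and C. Of 32851 promoter windows of the same length, 32.7% held at least 1 GC box. A share among windows of like G and C content was not computed. *Sat1* held 2, *Oaz2* 3 and *Oaz1* 0, and of the 2 windows of *Sms* 1 held 4 and the other 0. The window of *Amd1* also held TATAA, which overlapped its reverse complement TTATA and was found on either strand in 22.8% of windows. The cyclic AMP element TGACGTCA was in no member's window (1.55% of all windows), and the E-box CACGTG, the same letters on both strands, was in 1 window of *Sms* (6.02%). These are matches of letters, and binding was not measured.

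Values were TPM, a unit that scales the reads of a gene for its transcript length and sums to 1000000 in each sample. Read counts were not used here, and depth is unknown, so precision rests on the spread between replicates alone. From 16841 to 17936 genes were above 0 TPM in a sample, and most values were identical in 0 of the 66 pairs of samples. Changes were fitted with limma on log2(TPM + 1), which understates the change of low genes, over 14427 protein-coding and mitochondrially-encoded genes. A gene was called when its p-value, adjusted by the Benjamini-Hochberg method over all of these genes, was under 0.05. The summed muscle fiber markers were at 175818–178911 TPM in young, 154585–174899 TPM in normal and 182388–209768 TPM in abnormal samples, without overlap between the groups. Of these 10 markers, 2 were called higher in abnormal than in normal fibers (*Myh4* and *Actn3*) and 0 lower, where 7.36% of all genes were called higher. *Myh4*, the myosin of the fastest fibers, made 96.9–98.6% of the summed heavy chains *Myh1*, *Myh2*, *Myh4* and *Myh7* in young samples, 93.7–99.2% in the Fluo-4 normal and 98.9–99.7% in the Fluo-4 abnormal samples. Mitochondrially-encoded genes took 7.35–8.01%, 8.75–10.9% and 4.75–6.92% of the TPM in the same order. Summed markers of immune cells were at 1.81–3.02, 5.68–15.5 and 9.32–16.2 TPM and those of endothelial cells at 19.0–37.7, 42.0–128 and 11.2–73.5 TPM, with 1 of 6 tested immune genes called higher (*Cd3e*) and 0 of 7 endothelial genes called between abnormal and normal fibers by limma (0 also at an unadjusted p under 0.05). Schwann cell markers summed to 0.773–1.81, 1.41–6.60 and 3.63–7.98 TPM and erythroid markers to 33.1–121, 119–482 and 44.4–236 TPM in the same order. Against young fibers, *Lyz2* was called higher in abnormal (5.19-fold) and normal fibers (4.57-fold), and *Cd3e* (1.83-fold) and the Schwann cell genes *Mbp* (3.03-fold) and *Sox10* (1.21-fold) in abnormal fibers. Satellite cell, fibroblast and smooth muscle markers summed to 6.78–14.4, 13.6–82.4 and 3.13–66.7 TPM over all samples, and the fat cell genes *Adipoq*, *Plin1* and *Lep* were listed at 0. The other fat cell gene, *Cfd*, had a mean of 0.728 TPM in normal samples and 0 in young and abnormal samples. The fat cell markers summed to at most 2.77 TPM in a normal sample. The part that other cells, fiber type and the mitochondrial share had in the differences below was not tested. In samples that sum over fibers, fewer cells of a type and less RNA per cell cannot be told apart.

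**Figure D1:**
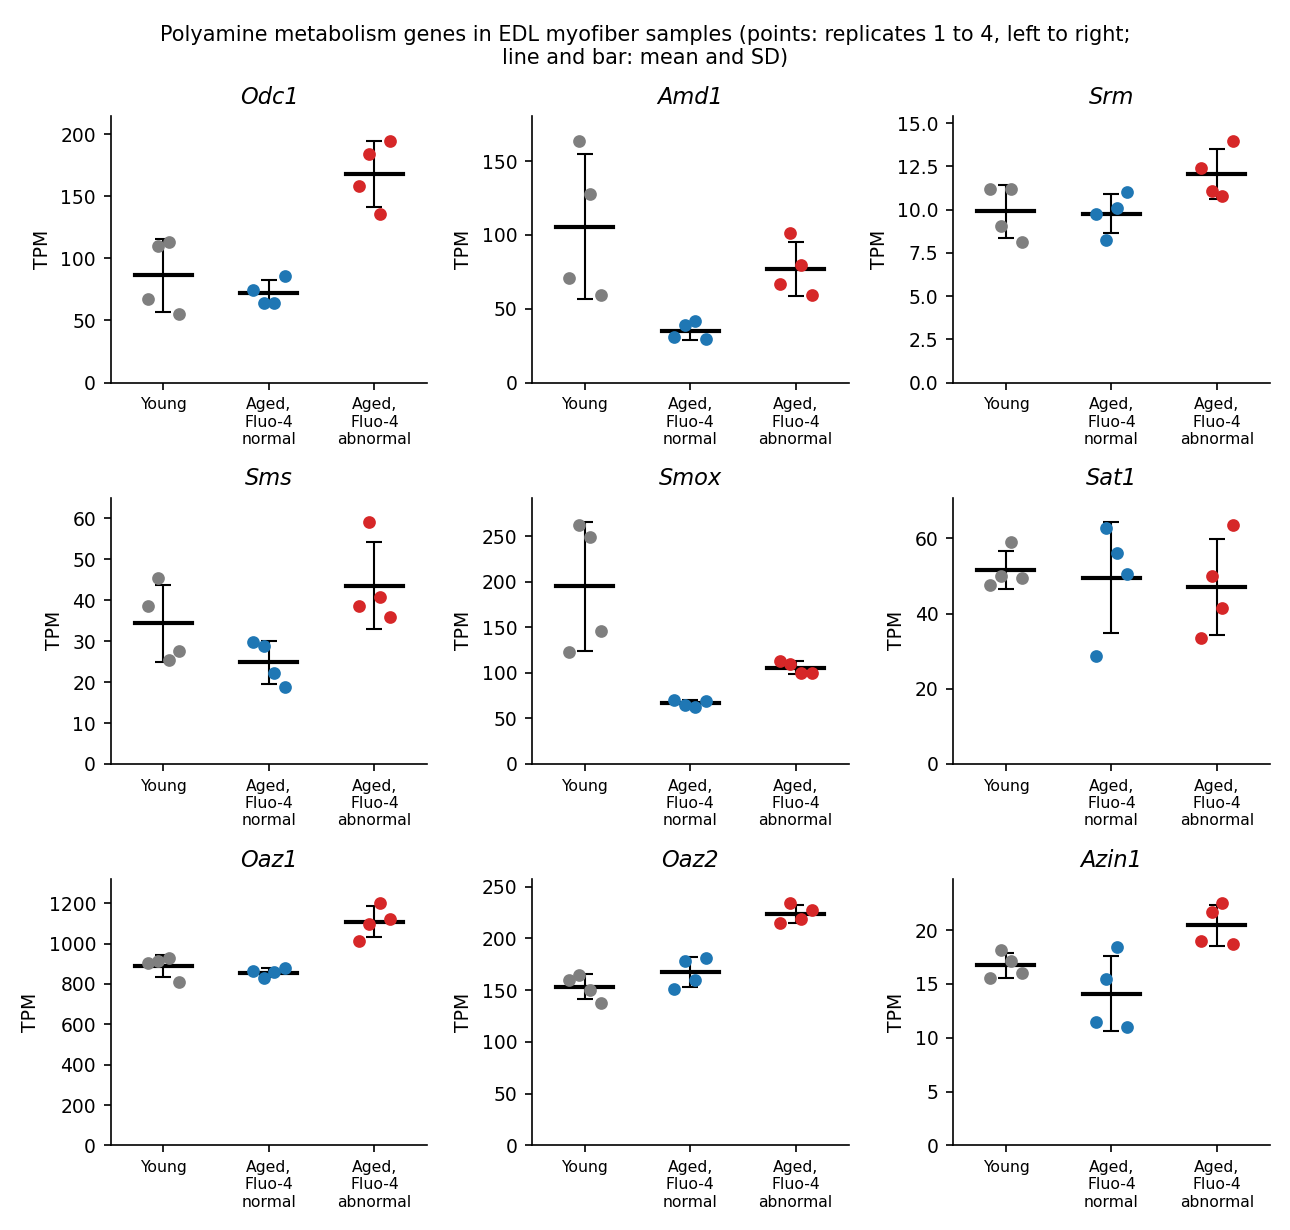
TPM of the 9 genes (y axis, linear and from 0) in the young, Fluo-4 normal and Fluo-4 abnormal samples (x axis). Points are the 4 replicates of a group in the order of their numbers, and the line and bar are the mean and SD. All 4 abnormal samples sat above all 4 normal samples for each gene but *Srm* and *Sat1*, and all 4 normal samples sat below all 4 young samples for *Amd1* and *Smox*.

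Between Fluo-4 abnormal and Fluo-4 normal fibers, the comparison at the same age, 7 of the 9 genes were called higher and 0 lower, and the same 7 had an unadjusted p under 0.05 in limma. The paper already lists polyamine biosynthesis among the terms of genes increased in abnormal fibers. That list comes from these same data, so the count of 7 is a description and no independent support. *Odc1*, *Amd1*, *Sms*, *Smox*, *Oaz1*, *Oaz2* and *Azin1* were the 7, and their abnormal and normal samples did not overlap. Of all genes tested, 7.36% were called higher, 1.99% lower and 9.35% in either direction, 11.5% were higher and 2.54% lower without overlap, and 25.6% had an unadjusted p under 0.05. These shares include many low genes, whereas all 9 members had a mean above 5 TPM in every group. When only genes with a mean of at least 5 TPM in at least 1 group were fitted, 1710 of 6348 genes were called in either direction. The median change of the 9 genes was 0.53 on the log2 scale, against 0.10 for all genes and 0.20 for the 5994 genes with a mean of at least 5 TPM. After subtraction of the all-gene median, the changes of the 7 ran from 0.27 for *Oaz1* to 1.10 for *Odc1*. The members belong to the genes of at least 5 TPM, whose higher median of 0.20 would leave smaller values. A raised median of all genes depends on how samples are scaled. With factors of the trimmed-mean type (TMM-type), which set the median of all genes to 0.00, 2 of the 9 genes were called (*Odc1* and *Amd1*), and the share of called genes that were higher fell from 78.7% to 36.3%. *Odc1* was then at 0.98 (adjusted p = 0.0086, limma). *Amd1* was at 0.87 with an adjusted p that rounds to 0.050 (limma), at the edge of the threshold. When TPM were rescaled without the mitochondrially-encoded genes, *Odc1*, *Amd1*, *Oaz1* and *Oaz2* were called, and the share that was higher was 66.5%. With the share of *Myh4* as a covariate, *Oaz2* and *Azin1* were called. With the replicate number of the aged samples as a random block, the same count was 7 of 9 while 2317 genes in all were called in place of 1349.

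Against young fibers, the abnormal fibers had 3 members called higher (*Odc1*, *Oaz1* and *Oaz2*) and 1 called lower (*Smox*), where 6.09% of all genes were called higher, 2.41% lower and 8.50% in either direction. The same 4 had an unadjusted p under 0.05 in limma, as did 23.0% of all genes, and *Smox* lay below the young samples without overlap, as did 3.95%. With TMM-type factors *Oaz1* lost its call, and the share of called genes that were higher fell from 71.7% to 39.4%. The Fluo-4 normal fibers had 0 members called higher and 2 called lower than young fibers (*Amd1* and *Smox*), where 0.561% of all genes were called higher, 0.589% lower and 1.15% in either direction. The same 2 had an unadjusted p under 0.05 in limma, as did 12.9% of all genes, and lay below the young samples without overlap, as did 4.96% (3.03% lay above). The median change of the 9 genes was 0.28 and -0.20 in these comparisons, against 0.07 and -0.02 for all genes and 0.12 and -0.07 for genes with a mean of at least 5 TPM. With the filter of 5 TPM, 1341 of 6348 genes were called between abnormal and young fibers, and 266 of 6348 between normal and young fibers. The comparisons share groups (each group entered a pair of them), so their values stand side by side below and were not correlated.

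**Figure D2:**
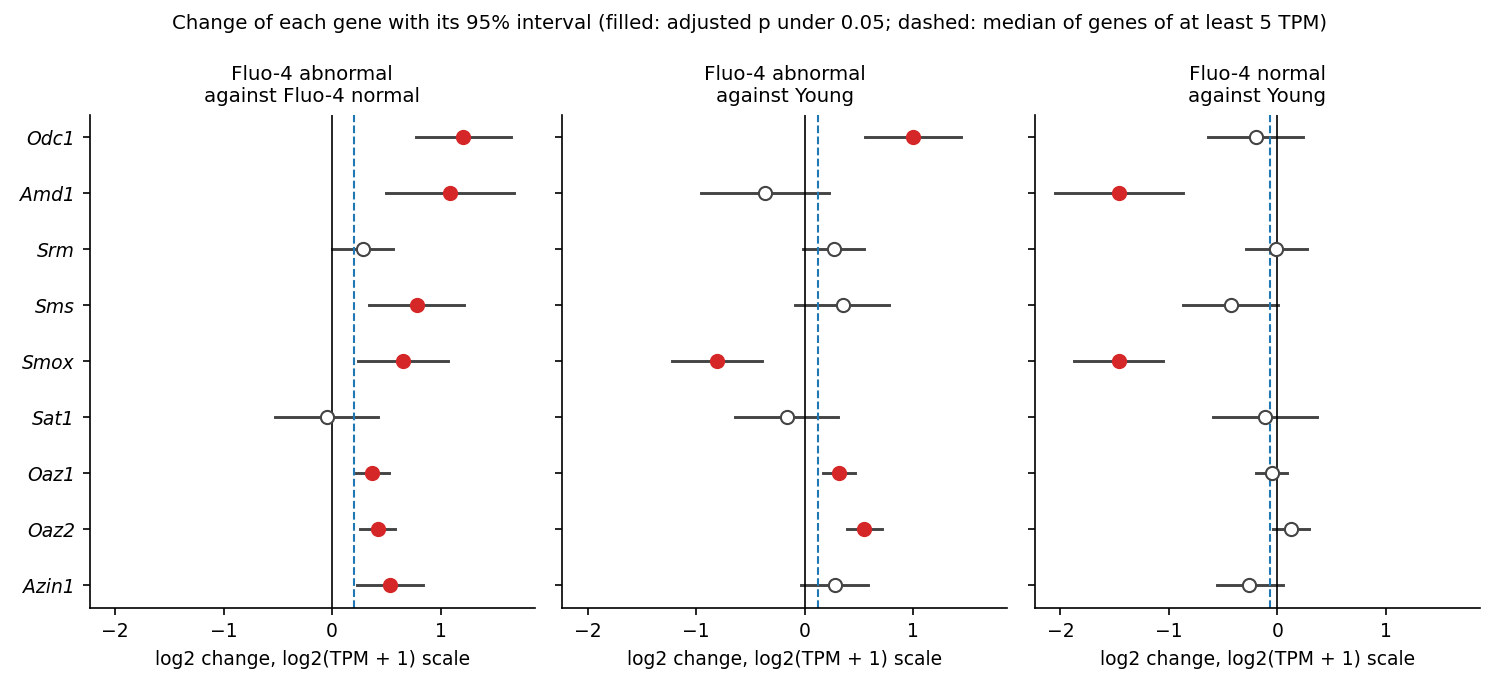
Fitted log2 change of each gene (x axis, log2(TPM + 1) scale) with its 95% interval in the 3 comparisons, as panels. Filled points have an adjusted p under 0.05, the solid line is 0 and the dashed line is the median of the 5994 genes of at least 5 TPM. The whole intervals of *Odc1*, *Oaz1* and *Oaz2* lay to the right of both lines in both comparisons of the abnormal fibers, and *Amd1* and *Smox* lay at -1.46 in normal against young fibers.

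*Odc1* (chromosome 12, 17594383–17601507, plus strand, GRCm39) encodes ornithine decarboxylase, the first and rate-limiting enzyme of the pathway. Its level was 67.5, 110, 113 and 55.4 TPM in the young samples, 74.6, 63.9, 64.3 and 85.9 TPM in the normal samples and 158, 184, 136 and 195 TPM in the abnormal samples. Every abnormal sample was above every young and every normal sample, and the young and normal samples overlapped. *Odc1* was 2.31-fold higher in abnormal than in normal fibers (log2 change 1.21, SE 0.20, limma adjusted p = 0.0039) and 2.01-fold higher than in young fibers (1.00, SE 0.20, limma adjusted p = 0.0097). Between normal and young fibers the log2 change was -0.20 with a 95% interval of -0.64 to 0.24 and an adjusted p of 0.74 (limma). Its rise over normal fibers was kept without any single aged sample (1.13 to 1.30) and with TMM-type factors (0.98). With the *Myh4* share as a covariate it was 0.88 with an adjusted p of 0.071 (limma). Of the 9 genes, *Odc1* had the largest fold above both other groups in this fit, but the rise over normal fibers was larger for *Amd1* with the *Myh4* share (1.08) and without normal replicate 3 (1.18 against 1.16) or abnormal replicate 4.

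*Amd1* (chromosome 10, 40162797–40178185, minus strand) encodes SAM decarboxylase, which makes the aminopropyl donor for spermidine and spermine. It was at 71.0, 164, 128 and 59.4 TPM in young, 30.6, 39.0, 41.8 and 29.2 TPM in normal and 66.8, 101, 79.7 and 59.1 TPM in abnormal samples. The normal samples were the low group, below every sample of the other groups, while the abnormal samples lay within the range of the young ones apart from replicate 4, the lowest of both groups by a small margin. Normal fibers were at 0.364-fold of young fibers (log2 change -1.46, SE 0.27, limma adjusted p = 0.023), and abnormal fibers were 2.13-fold above normal fibers (1.09, SE 0.27, limma adjusted p = 0.025). Abnormal and young fibers differed by -0.37 with an interval of -0.96 to 0.22 (limma adjusted p = 0.47), so neither a fall of that size nor a small rise could be told from the spread. The young samples spread widely, with a coefficient of variation of 46.6%, and replicates 2 and 3 were the high ones for *Amd1*, *Odc1* and *Smox* alike. The fall in normal fibers missed the threshold without young replicate 2 (-1.21, adjusted p = 0.064, limma), young replicate 3 (-1.33, 0.080) or normal replicate 4 (-1.38, 0.084). The rise in abnormal fibers missed it without normal replicate 1 (1.03, 0.065), normal replicate 4 (1.01, 0.065), abnormal replicate 2 (0.95, 0.084) or abnormal replicate 3 (1.06, 0.060). With the *Myh4* share as a covariate the changes were 1.08 (adjusted p = 0.12, limma) and -1.45 (adjusted p = 0.056).

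*Srm* (chromosome 4, 148675940–148681792, plus strand) encodes spermidine synthase and had the lowest mean of the 9 genes in each group. Its range was 8.14–11.2 TPM in young, 8.26–11.0 TPM in normal and 10.8–14.0 TPM in abnormal samples, and the abnormal group overlapped both others. None of its comparisons passed the test, with intervals of -0.00 to 0.56 against normal fibers (limma adjusted p = 0.20), -0.02 to 0.55 against young fibers (0.25) and -0.29 to 0.27 between normal and young fibers (0.99). *Sms* (X chromosome, 156226848–156275317, minus strand), which encodes spermine synthase, was at 38.6, 45.4, 25.5 and 27.7 TPM in young, 29.7, 28.7, 22.3 and 18.7 TPM in normal and 38.5, 59.1, 40.7 and 35.8 TPM in abnormal samples. The abnormal samples were above all normal samples and overlapped the young ones. *Sms* was 1.72-fold higher in abnormal than in normal fibers (log2 change 0.78, SE 0.20, limma adjusted p = 0.030), and not called against young fibers (0.35, interval -0.09 to 0.78, 0.35). The call was lost without normal replicate 3 (0.74, adjusted p = 0.059, limma), normal replicate 4 (0.66, 0.081), abnormal replicate 2 (0.63, 0.094) or abnormal replicate 3 (0.80, 0.057), and with TMM-type factors (0.56, 0.15). Of the 2 synthases, that of spermine alone was called.

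*Smox* (chromosome 2, 131333416–131368431, plus strand) encodes spermine oxidase, which turns spermine into spermidine and releases hydrogen peroxide. It was at 123, 262, 249 and 146 TPM in young, 70.2, 65.2, 62.3 and 69.4 TPM in normal and 113, 110, 99.4 and 100 TPM in abnormal samples. The 3 groups did not overlap at any point: the young were highest, the abnormal lay between and the normal were lowest. Normal fibers were at 0.363-fold of young fibers (log2 change -1.46, SE 0.19, limma adjusted p = 0.0025), a call kept without any single young or normal sample (-1.65 to -1.29) and with TMM-type factors (-1.41). Abnormal fibers were at 0.572-fold of young fibers (-0.81, SE 0.19, limma adjusted p = 0.021), also with TMM-type factors (-0.98). This call was lost without young replicate 2 (-0.64, adjusted p = 0.053, limma), young replicate 3 (-0.67, 0.061), abnormal replicate 3 (-0.78, 0.051) or abnormal replicate 4 (-0.78, 0.057). Abnormal fibers were 1.57-fold above normal fibers (0.65, SE 0.19, limma adjusted p = 0.049), and leaving out any 1 of the 8 aged samples lost this call while the change stayed at 0.62 to 0.68 (0.080 to 0.12). It was 0.43 with TMM-type factors (adjusted p = 0.22, limma) and 0.40 with the *Myh4* share (0.38), and 15 of 20 alternatives left it uncalled. With only the aged groups in the fit the same change had an adjusted p of 0.0042 (limma, SE 0.08), since the wide spread of the young samples, 36.1% against 5.52% in normal and 6.46% in abnormal samples, no longer entered the error.

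*Sat1* (X chromosome, 153996128–153999452, minus strand) encodes spermidine/spermine N1-acetyltransferase, the other route of breakdown, which is known to be strongly induced by excess polyamines. Its levels were 47.7–59.1 TPM in young, 28.6–62.8 TPM in normal and 33.5–63.4 TPM in abnormal samples, and the 3 groups overlapped. Replicate 1 was the lowest sample of each aged group. No comparison passed the test, with changes of -0.05 (interval -0.53 to 0.42, limma adjusted p = 0.91) against normal fibers, -0.16 (-0.64 to 0.31, 0.71) against young fibers and -0.11 (-0.59 to 0.37, 0.89) between normal and young fibers. The sign of the first of these differed between settings, from -0.29 to 0.47.

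*Oaz1* (chromosome 10, 80662516–80665124, plus strand), which encodes antizyme 1, was the most abundant member and made 52.6–68.0% of the summed TPM of the 9 genes. It was at 902, 915, 928 and 811 TPM in young, 862, 828, 857 and 878 TPM in normal and 1012, 1098, 1200 and 1124 TPM in abnormal samples. The abnormal samples were above all others, and the young and normal samples overlapped. *Oaz1* was 1.29-fold higher in abnormal than in normal fibers (log2 change 0.37, SE 0.07, limma adjusted p = 0.0057) and 1.25-fold higher than in young fibers (0.32, SE 0.07, limma adjusted p = 0.012). Both calls were kept without any single sample of the groups compared and lost with TMM-type factors (0.14, adjusted p = 0.48, and 0.14, adjusted p = 0.46, limma). The same factors moved the median of genes of at least 5 TPM from 0.20 to -0.02 between abnormal and normal fibers. *Oaz2* (chromosome 9, 65575283–65597582, plus strand), which encodes antizyme 2, was at 160, 165, 150 and 138 TPM in young, 151, 178, 160 and 181 TPM in normal and 215, 234, 219 and 228 TPM in abnormal samples. The abnormal group again stood above both others. It was 1.34-fold higher than in normal fibers (0.42, SE 0.07, limma adjusted p = 0.0049) and 1.46-fold higher than in young fibers (0.55, SE 0.07, limma adjusted p = 8.4e-04). Against young fibers the call was kept in each of 19 alternatives (0.37 to 0.58), including TMM-type factors, whereas against normal fibers TMM-type factors left 0.20 with an adjusted p of 0.12 (limma).

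*Azin1* (chromosome 15, 38487539–38519785, minus strand) encodes antizyme inhibitor 1, which resembles ornithine decarboxylase without its activity and takes antizyme away from it. It was at 15.6, 18.2, 17.1 and 16.0 TPM in young, 11.5, 15.5, 18.4 and 11.0 TPM in normal and 19.0, 21.7, 22.5 and 18.7 TPM in abnormal samples. The abnormal samples were above all others, the lowest at 18.7 TPM against 18.4 TPM for the highest normal sample. *Azin1* was 1.45-fold higher in abnormal than in normal fibers (log2 change 0.53, SE 0.14, limma adjusted p = 0.032), and not called against young fibers (0.28, interval -0.03 to 0.58, 0.27), although 12.2% of all genes were, like it, higher without overlap there. The call was lost without normal replicate 1 (0.45, adjusted p = 0.085, limma), normal replicate 4 (0.43, 0.084), abnormal replicate 2 (0.50, 0.090) or abnormal replicate 3 (0.49, 0.084), and with TMM-type factors (0.32, 0.16).

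**Figure D3:**
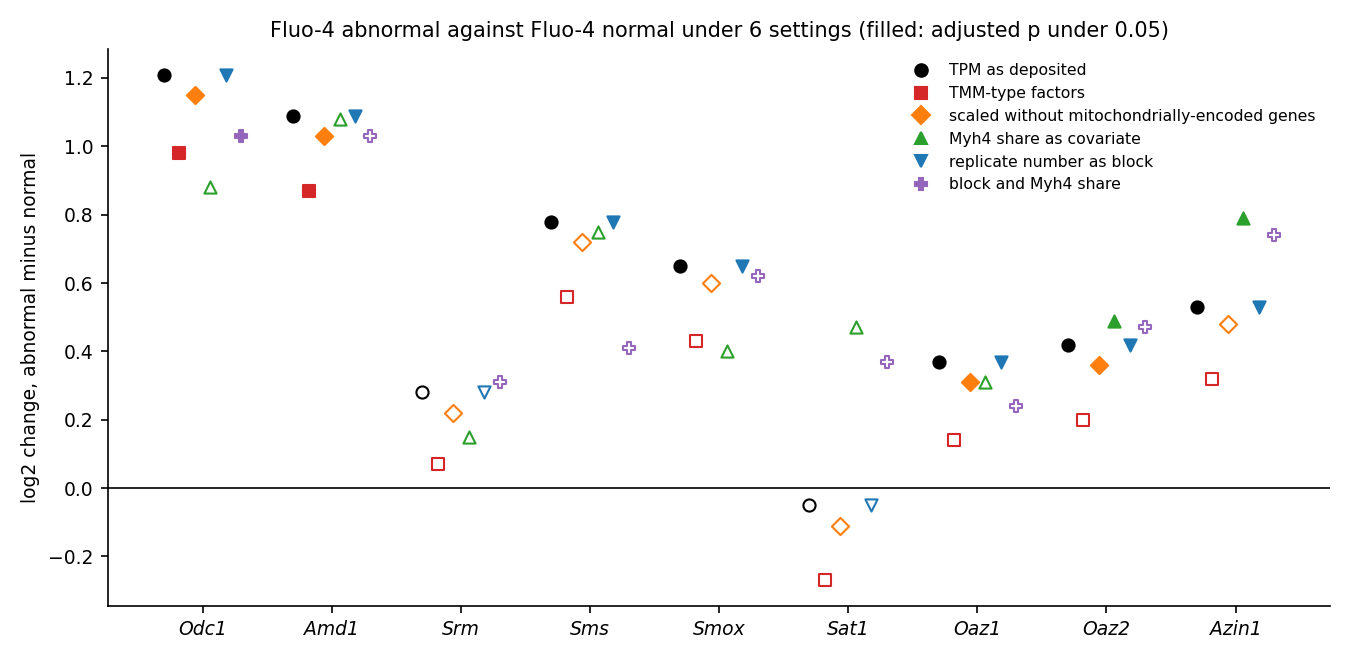
Fitted log2 change between abnormal and normal fibers (y axis) of each gene (x axis) under 6 settings, marked by shape and color, with filled symbols for an adjusted p under 0.05. *Odc1* and *Amd1* stayed between 0.87 and 1.21 in all 6, and *Sat1* was below 0 in 4 and above 0 with the *Myh4* share.

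Ratios of TPM within a sample do not depend on how samples were scaled, and they are given as a description. Those with *Amd1* or *Oaz1* leave out reads assigned to the near-identical copies described below, so their absolute level is uncertain. *Amd1* was at 1.05–1.50 times *Odc1* in young samples, 0.340–0.650 in normal and 0.303–0.586 in abnormal samples. Both aged groups lay below the young group and overlapped each other, so the 2 transcripts stood in a similar proportion in normal and abnormal fibers while their levels differed. The ratio of *Smox* to *Odc1* was 1.83–2.64 in young, 0.808–1.02 in normal and 0.515–0.731 in abnormal samples, without overlap between any of the groups. The ratio of *Odc1* to the sum of *Oaz1* and *Oaz2* had a mean of 0.0821 ± 0.0245 (SD, n = 4) in young, 0.0704 ± 0.00860 in normal and 0.127 ± 0.0216 in abnormal samples. The abnormal samples (0.0959–0.144) were above all normal samples (0.0633–0.0811) but overlapped the young ones (0.0585–0.105). The ratio of *Azin1* to the antizymes overlapped between all groups, at 0.0147–0.0169, 0.0104–0.0181 and 0.0138–0.0163. *Oaz1* to *Oaz2* was 5.56–6.18 in young, 4.65–5.71 in normal and 4.69–5.48 in abnormal samples, and the abnormal group lay below the young group. *Smox* to *Amd1* overlapped between the groups, at 1.59–2.47, 1.49–2.38 and 1.09–1.70.

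**Figure D4:**
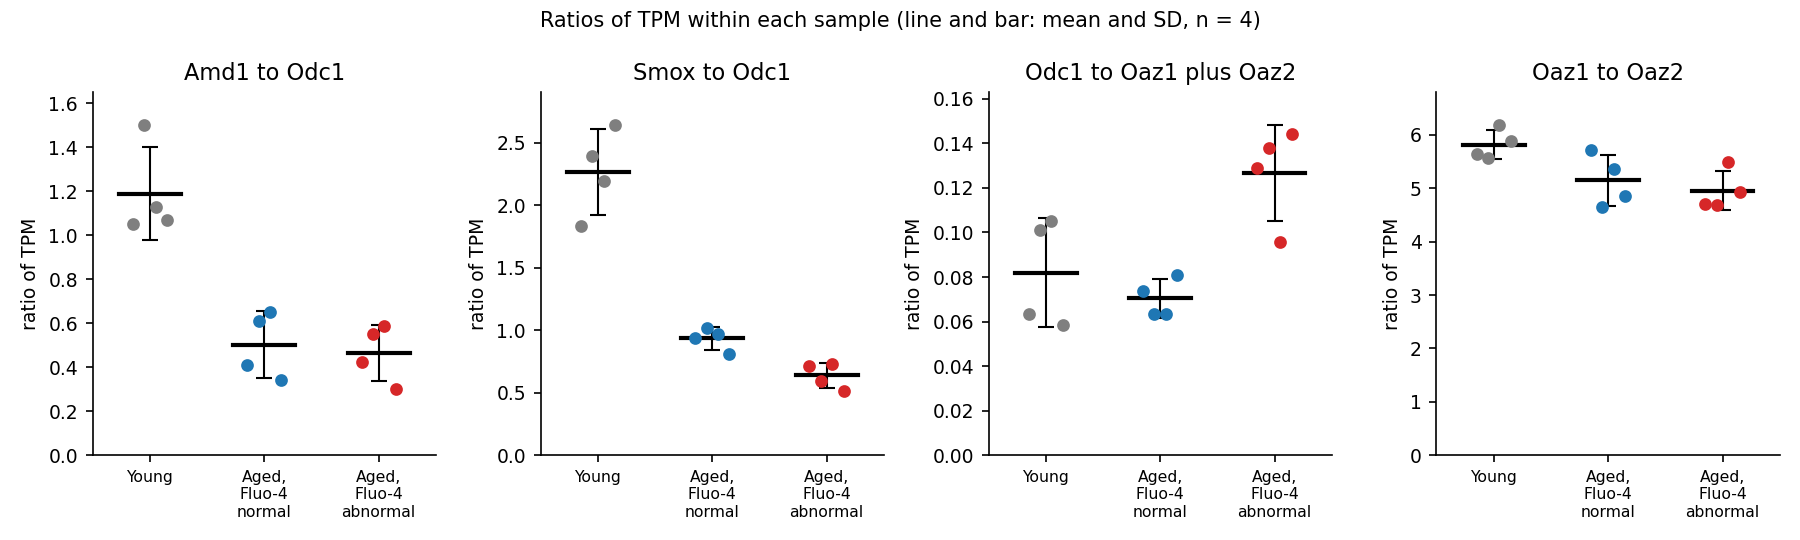
Ratios of TPM within each sample (y axis, linear and from 0) for 4 pairs of transcripts in the 3 groups (x axis), with points for the 4 replicates and the mean and SD. *Smox* to *Odc1* separated all 3 groups, *Amd1* to *Odc1* separated the young group from both aged groups, and *Odc1* to the antizymes was highest in the abnormal group.

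Several members have near-identical copies in the genome, among which reads of an mRNA can be divided. *Amd2*, an intronless copy of *Amd1* with 99.0% identity over 3219 bases, was at 0.403–0.505 of *Amd1* in every sample, and the pseudogene *Amd-ps3* (98.0% over 1024 bases) at 0.522–0.664. *Oaz1-ps* (99.7% over 685 bases) was at 0.280–0.332 of *Oaz1*, and *Sms-ps* (100% over 1101 bases) at 0.794–1.66 of *Sms*. The values of *Amd1*, *Sms* and *Oaz1* are uncertain by that division, and *Amd2* followed *Amd1* (1.03 between abnormal and normal fibers, limma adjusted p = 0.024, and 0.057 to 0.080 without normal replicates 1 or 4 or abnormal replicates 2 or 3). With the copies added to their parent genes, a step chosen after the data were seen, the changes between abnormal and normal fibers were 1.11 for *Amd1* (limma adjusted p = 0.018), 0.75 for *Sms* (0.0091) and 0.36 for *Oaz1* (0.0047), and the counts of 7, 4 and 2 called members in the 3 comparisons were the same. The processed pseudogenes of *Odc1* were at 0.631 TPM or less. *Odc1*, *Smox*, *Oaz1* and *Azin1* overlap a non-coding gene on the opposite strand by 305, 339, 393 and 756 bases, and the library kit keeps no strand, so reads there cannot be told apart.

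The other genes of the pathway were counted by 5 lists of their roles. Of their 31 tested genes, 4 (12.9%) were called between abnormal and normal fibers, 3 (9.68%) between abnormal and young fibers and 1 (3.23%) between normal and young fibers, against 9.35%, 8.50% and 1.15% of all genes. These shares rest on 4 genes or fewer, and the called genes are described as single genes. Of 6 paralogs and further enzymes, 1 was called between abnormal and normal fibers, *Amd2*, while the list's median change was -0.07. Of 8 tested genes of polyamine transport, 1 was called higher, *Atp13a3*, an endosomal polyamine transporter. *Atp13a3* was at 1.64–2.85 TPM in young, 1.37–2.89 TPM in normal and 4.02–4.53 TPM in abnormal samples, without overlap between the abnormal group and the others. Its change was 0.82 against normal fibers (SE 0.19, limma adjusted p = 0.016) and 0.76 against young fibers (SE 0.19, limma adjusted p = 0.024), and both were kept with TMM-type factors (0.66 and 0.62). The call against normal fibers was kept without any single aged sample, and that against young fibers was lost without young replicates 1, 2 or 4 or abnormal replicates 2 or 4 (0.68 to 0.77, adjusted p = 0.051 to 0.077, limma). *Atp13a3* and *Odc1*, a transporter and a synthetic enzyme, were both highest in the abnormal samples.

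Among 8 tested genes of SAM supply and methionine salvage, 1 was called higher in abnormal than in normal fibers, *Mat2a*, which makes SAM. It was at 79.9–103 TPM in normal and 126–136 TPM in abnormal samples (log2 change 0.47, limma adjusted p = 0.022), and at 108–155 TPM in young samples, which the abnormal group overlapped. The call was lost with TMM-type factors (0.25, adjusted p = 0.12, limma) and without normal replicate 1 (0.40, 0.058), abnormal replicate 2 (0.46, 0.063) or abnormal replicate 4 (0.45, 0.053). It was also lost with the *Myh4* share as a covariate (0.48, 0.099), with sample quality weights (0.43, 0.054) and with the fixed block and the *Myh4* share (0.59, 0.090). *Apip*, an enzyme of methionine salvage, was called lower in abnormal than in young fibers (36.6 against 44.5 TPM, -0.27, limma adjusted p = 0.040), with TMM-type factors too (-0.45), but in none of the fits without 1 sample (0.064 to 0.10). Of 5 tested genes of ornithine supply, 0 were called between abnormal and normal fibers, with 2 at an unadjusted p under 0.05 in the same limma fit. *Oat*, which interconverts ornithine and glutamate semialdehyde, was at 0.36 there (203 against 158 TPM, limma adjusted p = 0.063) and was called with the replicate number as a fixed block (0.0076) or a random block (0.022), with the filter of 5 TPM (0.031) and without normal replicate 3 (0.44, 0.031) or abnormal replicate 1 (0.42, 0.044), while TMM-type factors left 0.13 (0.53). It was called higher in abnormal than in young fibers (203 against 144 TPM, 0.49, limma adjusted p = 0.018), and the call was lost with TMM-type factors (0.32, 0.063) and without young replicate 4 (0.44, 0.064) or abnormal replicate 2 (0.45, 0.055). Of 4 genes of hypusination, the modification of the translation factor eIF5A by spermidine, 1 was called higher, *Eif5a* itself (503 against 418 TPM, 0.26, limma adjusted p = 0.025). With TMM-type factors this change was 0.04 (adjusted p = 0.88, limma), and the call was also lost without normal replicate 3 (0.23, 0.056) or abnormal replicates 2 (0.23, 0.079), 3 (0.25, 0.060) or 4 (0.26, 0.053). *Eif5a* was not called either with the *Myh4* share (0.27, 0.11), the fixed block and that share (0.10, 0.66), scaling without mitochondrially-encoded genes (0.20, 0.090) or only the groups compared (0.26, 0.084). Between normal and young fibers, *Amd2* was the only gene called in these lists (-1.41, limma adjusted p = 0.020), and without young replicate 2, young replicate 3 or normal replicate 4 its adjusted p was 0.057, 0.071 and 0.065. *Mat2a* was not called there (-0.48, limma adjusted p = 0.064), but was with TMM-type factors (-0.43, 0.022), the filter of 5 TPM (0.030), the pseudocount of 0.1 (0.048) and without young replicate 4 (-0.57, 0.033). An unadjusted p under 0.05 was found there for 3 of 6 paralogs and further enzymes, 1 of 8 transport genes, 0 of 5 ornithine genes, 2 of 8 SAM genes and 0 of 4 hypusination genes, or 6 of 31 (19.4%), against 12.9% of all genes. Between abnormal and normal fibers it was found for 8 of the 31 (25.8%), against 25.6% of all genes. For abnormal against young fibers the count was 8 of 31 (25.8%), against 23.0% of all genes.

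Genes with a pattern over the 12 samples like that of *Odc1* were found by the root mean square difference of centered log2 values among 5994 genes. Among the nearest were *Npdc1* (0.19), *Mthfd2* (0.25), *Rhobtb1* (0.25) and *Itpr1* (0.26), where *Odc1* itself varied by 0.61 on the same scale. *Mthfd2*, a mitochondrial enzyme of folate metabolism, was at 2.74–6.24 TPM in young, 3.68–5.06 TPM in normal and 6.48–12.6 TPM in abnormal samples. *Itpr1*, an inositol trisphosphate receptor that releases Ca2+ from the endoplasmic reticulum, was at 3.71–6.19, 4.17–4.24 and 7.89–10.8 TPM. Both were higher in every abnormal sample than in every other sample, as *Odc1* was. These genes were chosen for their likeness, so their levels are a description.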

How the data were processed

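RNA of single EDL fibers (10 ng per sample) was made into libraries with the SMART-Seq v4 kit. DRAGEN 4.3 was used by the authors for alignment (GRCm39) and for the deposited TPM, which sum to 1000000 in each sample. The annotation release is not given in the sources used here, and depth is unknown. Each file had 55487 lines, and 114 symbols on several lines were summed. Symbols were matched to GENCODE vM39 (49848 by name, 107 by synonym) or to RefSeq (2527), and 2885 were not matched. Groups follow the labels.

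The 3 groups were fitted together with limma 3.58.1 in R 4.3.3 on log2(TPM + 1), with a variance trend, over 14427 protein-coding and mitochondrially-encoded genes with a mean of at least 0.02 TPM in at least 1 group. The methods give a fold threshold against young fibers and a P value threshold between the aged groups for the RNA-seq, and name tests for 2 or more groups for the study as a whole; limma was used in their place, since it pools the spread over genes. On simulated data the fit was tested for known changes. The members and lists were chosen with earlier results of these data known. Named genes were the 9 members, every gene of the other pathway lists called in any comparison, *Myh4*, and the 5 genes most like *Odc1*, of which 1 is not reported here. *Actn3*, *Cd3e*, *Lyz2*, *Mbp*, *Sox10* and the fat cell genes were named after their values were seen.

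The scaling was varied with TMM-type factors (30% and 5% trimmed) and by leaving mitochondrially-encoded genes out of the total. The filter was removed or raised to 5 TPM, the pseudocount lowered to 0.1, and genes of all classes tested. Fits were also run on just the groups compared, with weights for sample quality, with the *Myh4* share as covariate, with a replicate block, and without each sample of the groups compared in turn. Samples of the third group, which enter the shared error, were never left out singly. The block with the *Myh4* share and the sums with near-identical copies were added after the data were seen. Labels do not say that a number marks a mouse. The correlation between same-numbered aged samples, after subtraction of group means, was 0.44, 0.37, 0.43 and 0.30 over 5994 genes, against -0.36 to 0.23 for different numbers, so the numbers were treated as pairs in the block. Near-identical copies were found by BLAST 2.17.0 (with at least 95% identity over 100 bases and 50% of either transcript). Python 3.11.15 was used for tables and figures.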

Additional observations from a re-analysis of the deposited data

How the results depend on the processing

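With a replicate block, 7 members were called between abnormal and normal fibers, as without it (fixed block of the 8 aged samples or random block), and no member's call changed; the random block raised the number of all genes called from 1349 to 2317. The count of 7 members became 2 with TMM-type factors, 4 when scaled without mitochondrially-encoded genes, 2 with the *Myh4* share as a covariate, 1 with the fixed block and the *Myh4* share (*Odc1*, limma adjusted p = 0.044), and 3 to 6 when 1 aged sample was left out. The *Myh4* share was higher in the abnormal samples than in every normal sample but replicate 1. With it, the SE rose from 0.27 to 0.40 for *Amd1* (changes 1.09 and 1.08) and from 0.20 to 0.27 for *Odc1* (1.21 and 0.88). A call lost there can come from a wider error as well as from a smaller change. All genes called between abnormal and normal fibers numbered 855 with TMM-type factors, 820 with the *Myh4* share, 748 with only the groups compared, 33 with the block and the *Myh4* share, and 665 (without abnormal replicate 2) to 1456 when 1 aged sample was left out. The count of 4 members between abnormal and young fibers was 3 to 4 when 1 sample was left out, and 604 to 1220 genes in all were called in place of 1226. The count of 2 between normal and young fibers became 1 with no filter, with the *Myh4* share, or without young replicate 2, young replicate 3 or normal replicate 4, and all genes called (166) became 266 with the filter of 5 TPM, 358 with sample quality weights and 55 to 207 when 1 sample was left out.

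Signs changed only for genes that were not called. *Sat1* between abnormal and normal fibers was 0.47 with the *Myh4* share, 0.37 with the block and that share, and -0.29 to 0.09 when 1 sample was left out. Against young fibers *Sat1* was 0.11 in abnormal fibers with the *Myh4* share and -0.24 to 0.13 in normal fibers when 1 sample was left out. *Srm* between normal and young fibers was 0.04 with TMM-type factors, 0.02 without mitochondrially-encoded genes, 0.05 with the *Myh4* share and -0.09 to 0.06 when 1 sample was left out. The cause of these differences was not tested. With unknown depth, the error of low values such as those of *Srm* and *Atp13a3* is known only from the spread between samples.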
